A study of Mus musculus with 14 samples.

Results

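The immediate early response genes considered here are Fos, Fosb, Jun, Junb, Egr1, Atf3, Ier2, Ier3, Nr4a1 and Dusp1, 10 of the 22180 genes with a named probe set. They were chosen by name, and each was represented by 1 probe set, so 10 probe sets stand for 10 genes. All 10 lay above the filter on dim genes and were among the 18010 genes tested. RNA came from whole jejunum of 14 mice, 1 array per mouse. In 7 mice LRH-1 was wild type (labelled LRH-1 WT, here WT) and in 7 it carried K289R (labelled LRH-1 K289R, here K289R). LRH-1 is the nuclear receptor encoded by Nr5a2, and K289R replaces a lysine of this receptor with arginine. Mice of both genotypes were 19 to 21 weeks old, ate freely until they were killed at 7 am, and the tissue was snap-frozen. The labels name no strain, sex, litter, cage number or order of handling, so these were not set beside the values.

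Immediate early genes are transcribed within minutes of a stimulus such as growth factor, stretch, injury or stress, without the need for new protein. Kinase cascades reach transcription factors that already sit on their promoters, chiefly SRF with its ETS partners and CREB, and many of the transcripts decay again quickly. Fos, Fosb, Jun, Junb and Atf3 encode bZIP proteins that pair with one another in AP-1 and related dimers, Egr1 encodes a zinc finger factor, Nr4a1 an orphan nuclear receptor, Ier2 and Ier3 short-lived regulatory proteins, and Dusp1 a phosphatase that switches MAP kinases off.

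Each array gave intensities for 41345 probe sets, and the array medians ran from 168 to 174. Over all probe sets, r between arrays of 1 genotype ran from 0.984 to 0.993. The number of arrays limits the precision. Enterocyte markers were high on every array, with a mean log2 intensity over 10 genes of 13.09 to 13.30 in WT and 13.10 to 13.29 in K289R. Of 3 hepatocyte genes, Alb had a mean of 6.95 in WT and 6.94 in K289R, near the filter of 6.25. Apoh was at 7.16 and 6.97, and Ttr was higher, at 8.59 and 8.48. These markers go with the tissue label, jejunum, and not with the word hepatic in the title of the series. One array stood apart for these genes, WT replicate 2, and results that rest on it are given with and without it. Fabp6, a gene of the distal small intestine, had a log2 level above 8 on 4 arrays, at 12.52 and 9.18 on replicates 1 and 6 of WT and at 10.71 and 9.91 on replicates 2 and 7 of K289R. WT replicate 2 was not among them, with a Fabp6 level of 6.30. Over all probe sets the mean r of WT replicate 2 with the other arrays was 0.988, inside the range of 0.986 to 0.991 over the 14 arrays.

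On WT replicate 2 the immediate early genes stood far above their level in the other wild-type mice. Egr1 was at a log2 intensity of 11.18 there, and the other 6 WT arrays lay between 7.63 and 8.06, which makes it 9.33-fold above their median. Fos was at 11.53, against 9.72 to 10.28 on the other WT arrays, or 2.59-fold. Among all 18010 genes the excess of Egr1 over the median of the other WT arrays ranked 2 from the top and that of Fos 12. All of these values describe 1 mouse.

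Nr4a1 reached 9.46 on WT replicate 2 and between 8.23 and 8.55 on the other WT arrays, 2.10-fold above their median. Dusp1 reached 10.46 there against 9.23 to 9.68, 1.94-fold. Ier2 was at 8.89 against 7.73 to 8.10, 1.93-fold. For these 3 genes, as for Fos and Egr1, WT replicate 2 was above every other array of both genotypes; the highest K289R values were 10.37 for Fos, 8.65 for Egr1, 8.80 for Nr4a1, 9.96 for Dusp1 and 8.09 for Ier2.

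The excess was smaller for the remaining members. Ier3 stood at 9.41 on WT replicate 2 against 8.47 to 8.88 on the other WT arrays, 1.70-fold, and Atf3 at 10.58 against 9.81 to 10.14, 1.43-fold. Of the AP-1 genes other than Fos, Junb was 1.35-fold, Fosb 1.28-fold and Jun 1.15-fold above the median of the other 6 arrays. Jun at 11.30 was below WT replicate 7 (11.39), and Atf3 at 10.58 was within the K289R range.

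WT replicate 2 was the highest of the 7 WT arrays for 9 of the 10 members, all but Jun, where 18.8% of all tested genes had their highest WT value on that array. It was the highest of all 14 arrays for 8 members, all but Jun and Atf3, against 7.33% of all genes. Its gap to the next WT array, as a share of the WT range, was past Dixon's 95% limit for 7 values for 5 members, Fos, Egr1, Ier2, Nr4a1 and Dusp1, against 0.844% of all genes. The median excess over the members was 0.85 on the log2 scale, while the median over all genes was −0.003. No other array was like it. The next largest median deviation of the 10 members from the other arrays of a genotype was 0.27, on K289R replicate 5. That array was highest of its genotype for 5 members, against 18.3% of all genes.

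**Figure D1:**
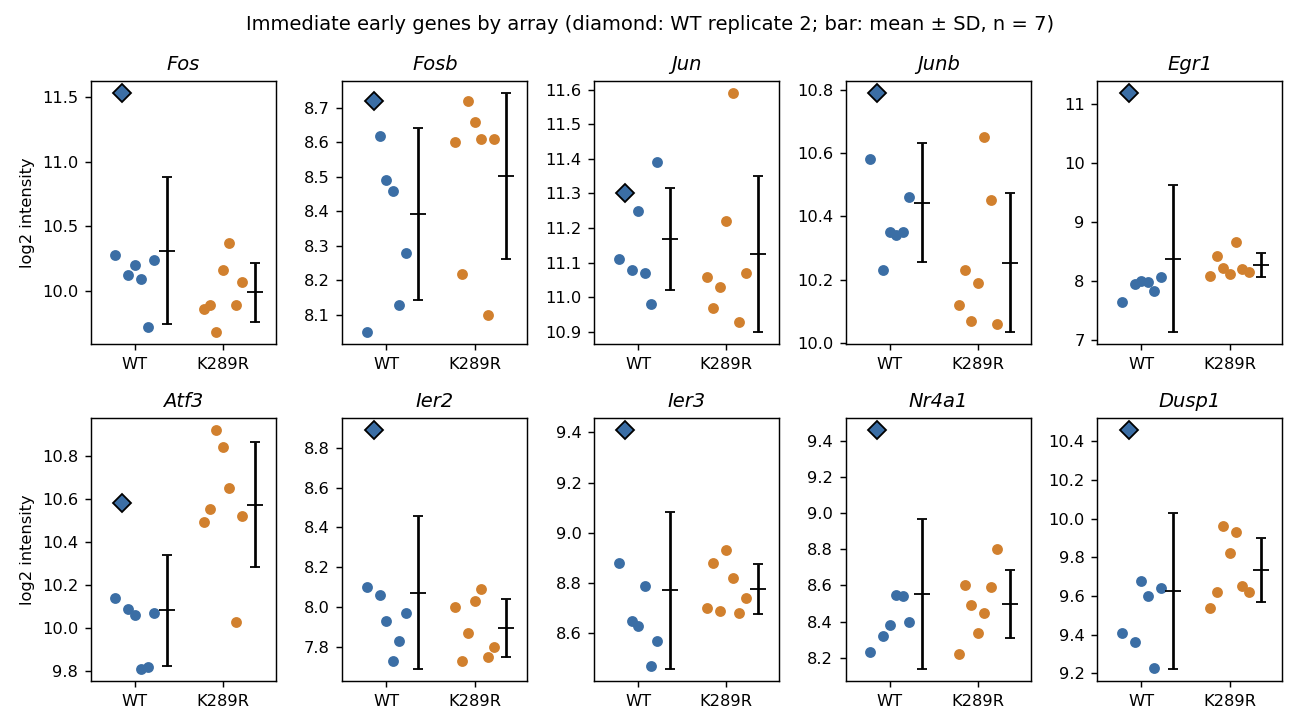
Log2 intensity of the 10 genes on each array, WT in blue and K289R in orange, with WT replicate 2 as a diamond and the mean ± SD of 7 arrays as a bar (the vertical scale differs between panels and does not start at 0). The diamond is the highest WT point in every panel but that of Jun, and for Egr1 it lies at 11.18 while all other arrays are at or below 8.65.

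The promoters of 3 of the genes that stood highest on WT replicate 2, and that of Atf3, which differed most between the genotypes, are shown for the letters they do and do not share. Each line is the 250 bases before the transcription start given by RefSeq, assembly GRCm38.p6, 5′ to 3′ on the strand of the gene, and capitals mark matches on either strand to the motifs searched. Fos is at chr12:85473640-85473889 (plus strand), Nr4a1 at chr15:101266596-101266845 (plus), Dusp1 at chr17:26508473-26508722 (minus) and Atf3 at chr1:191183334-191183583 (minus).
Fos: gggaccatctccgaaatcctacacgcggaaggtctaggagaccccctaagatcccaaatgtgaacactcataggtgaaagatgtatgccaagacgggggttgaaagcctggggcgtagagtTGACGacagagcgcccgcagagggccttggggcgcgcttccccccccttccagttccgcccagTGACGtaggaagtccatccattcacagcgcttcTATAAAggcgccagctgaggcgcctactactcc
Nr4a1: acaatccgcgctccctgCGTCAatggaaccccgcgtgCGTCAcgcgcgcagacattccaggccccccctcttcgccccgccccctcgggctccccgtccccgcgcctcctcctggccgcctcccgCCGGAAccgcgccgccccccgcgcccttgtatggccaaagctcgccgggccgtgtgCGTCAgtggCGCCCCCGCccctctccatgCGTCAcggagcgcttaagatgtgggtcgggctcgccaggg
Dusp1: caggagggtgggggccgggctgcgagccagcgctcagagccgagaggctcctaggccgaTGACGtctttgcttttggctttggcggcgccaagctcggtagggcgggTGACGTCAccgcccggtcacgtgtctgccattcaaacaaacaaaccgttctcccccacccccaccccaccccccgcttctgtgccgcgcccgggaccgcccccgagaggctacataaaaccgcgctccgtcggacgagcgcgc
Atf3: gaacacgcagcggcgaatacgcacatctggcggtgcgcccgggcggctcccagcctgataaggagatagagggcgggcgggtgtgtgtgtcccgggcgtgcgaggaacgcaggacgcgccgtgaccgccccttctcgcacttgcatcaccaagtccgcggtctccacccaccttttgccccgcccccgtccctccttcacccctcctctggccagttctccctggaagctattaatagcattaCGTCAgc

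The motifs were TATAAA, the CREB site TGACGTCA and its core TGACG, the AP-1 site TGANTCA, the EGR site GCGNGGGCG, the ETS core CCGGAA and the CArG box that SRF binds, with both strands searched and the core counted also inside the full CREB site. Of the 10 members, 8 were matched in the RefSeq table, all but Egr1 and Ier2. The core TGACG was present in 6 of these 8, Fos, Fosb, Junb, Atf3, Nr4a1 and Dusp1, and in 17.8% of all 32851 promoters of the same length. Nr4a1 had 4 copies, beginning 233, 213, 69 and 40 bases before the start, Fos had 2, at 129 and 66, and Dusp1 had 3, of which 2 make up the full TGACGTCA at 143. The full site was found in 1 of the 8 members, Dusp1, and in 1.55% of all promoters.

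In Atf3 the only match was the core TGACG on the opposite strand (printed as CGTCA), 7 bases before the start. TATAAA was found in 1 of the 8, Fos, 33 bases before the start, and in 12.4% of all promoters. The EGR site was found in 2 of the 8, Fosb and Nr4a1 (4.70% of all promoters), and the ETS core in 1, Nr4a1 (12%). The AP-1 site and the CArG box were found in 0 of the 8 within this window, against 6.75% and 1.47% of all promoters. Jun and Ier3 had none of these letters in the window. Such matches describe the sequence, and these data do not show which factor was bound.

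Between the genotypes, no immediate early gene passed the threshold of 0.05 on the adjusted p (limma with Benjamini-Hochberg adjustment over 18010 genes), where 8 of all genes, or 0.0444%, did. Of the 10 members 4 were higher and 6 lower in K289R, with a median difference of −0.05 on the log2 scale (K289R minus WT), against −0.0039 over all genes. One of them, Atf3, had an unadjusted p under 0.05, and 8.48% of all genes did. Nr5a2 itself differed by −0.14 (SE 0.092, limma adjusted p = 0.685). In 0 of the 10 members did the arrays of the genotypes fail to overlap, against 0.167% of all genes.

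Atf3, a stress-induced repressor of the ATF and CREB family, had the largest difference. Its log2 intensity had a lowest, median and highest value of 9.81, 10.07 and 10.58 on the WT arrays and of 10.03, 10.55 and 10.92 on the K289R arrays. The means were 10.08 ± 0.26 (SD, n = 7) and 10.57 ± 0.29 (SD, n = 7). Of the K289R arrays 6 were above the WT mean, K289R replicate 6 being the exception, and 3 were above every WT array. The difference was 0.49 (SE 0.128, 95% interval 0.22 to 0.76), a fold of 1.40, with an unadjusted p of 0.00137 in limma and an exact 2-sided permutation p of 0.0128. Its limma adjusted p was 0.277.

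When WT replicate 2 was left out, the difference of Atf3 was 0.57 (SE 0.115), 6 of the 7 K289R arrays were above every remaining WT array, and the limma adjusted p was 0.104. Over all 28 fits run, the difference of Atf3 stayed between 0.43 and 0.61 and its adjusted p between 0.103 and 0.677, so that it passed in none of them. Atf3 is on chromosome 1 like Nr5a2, but not within 20 Mb of it.

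For Egr1 the direction of the genotype difference depended on 1 mouse. With all arrays the WT mean was 8.37 ± 1.25 (SD, n = 7), the K289R mean was 8.26 ± 0.21 (SD, n = 7), a difference of −0.11 (SE 0.404, 95% interval −0.96 to 0.74, limma adjusted p = 0.953). Without WT replicate 2 the WT mean was 7.90 ± 0.16 (SD, n = 6) and the difference was 0.36 (SE 0.094, 95% interval 0.16 to 0.56). All 7 K289R arrays, from 8.08 to 8.65, then lay above all 6 WT arrays, from 7.63 to 8.06, where 0.328% of all genes showed no overlap. The unadjusted limma p was 0.0015 and the exact permutation p 0.00117, the smallest that 6 against 7 arrays can give, but the limma adjusted p was 0.233. The adjusted p of Egr1 ran from 0.233 to 0.979 over all fits. The WT array was left out after its values were seen, so this is a description of the other 13 mice.

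Dusp1, the MAP kinase phosphatase, was higher in K289R with and without WT replicate 2, and the arrays of the genotypes overlapped in both cases. With all arrays its WT mean was 9.63 ± 0.40 (SD, n = 7), its K289R mean was 9.74 ± 0.17 (SD, n = 7), and the difference was 0.11 (SE 0.144). With 6 WT arrays it differed by 0.25 (SE 0.089, exact permutation p = 0.0321, limma adjusted p = 0.384), with 3 K289R arrays above every WT array. Over the members as a whole, 6 were higher and 4 lower without that array, with a median of 0.10 against −0.0074 over all genes. In that fit 3 members, Egr1, Atf3 and Dusp1, had an unadjusted p under 0.05, all with a higher level in K289R, where 10.1% of all genes had one in either direction. After adjustment 0 members passed, with 0.0333% of all genes. WT replicate 2 was left out after its values were seen, and it was the highest WT array for 9 of the 10 members. Removing it lowers the WT means of those genes, so the shift towards higher K289R values is in part set by the removal.

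**Figure D2:**
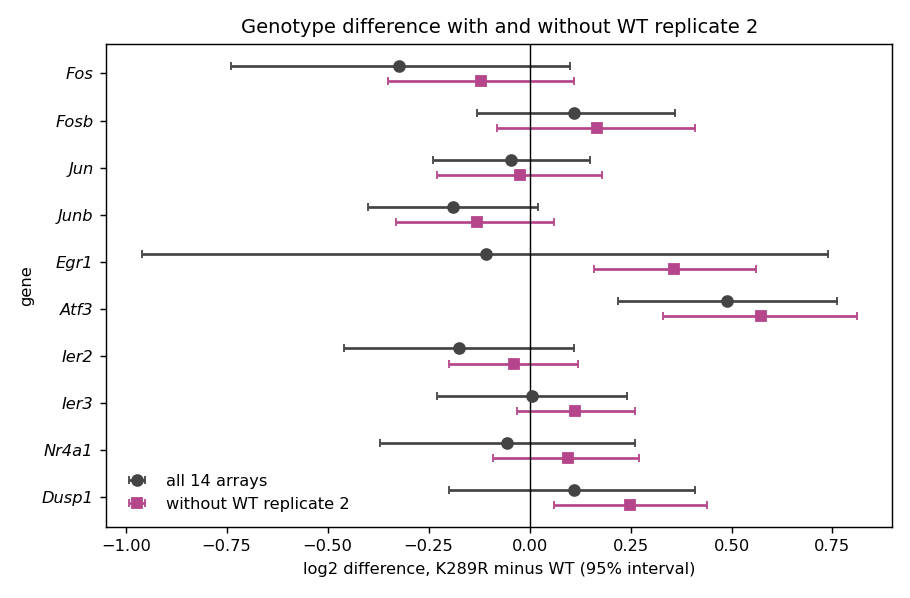
Log2 difference K289R minus WT with its 95% interval for each gene, from all 14 arrays (circles) and without WT replicate 2 (squares). The interval of Egr1 runs from −0.96 to 0.74 with all arrays and from 0.16 to 0.56 without that array, while Atf3 lies above 0 in both.

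None of the other members had an unadjusted p under 0.05 in limma, with all arrays or without WT replicate 2. The mean of Fos was 10.31 ± 0.57 (SD, n = 7) over the WT arrays and 9.99 ± 0.23 (SD, n = 7) over the K289R arrays. The difference was −0.32 (SE 0.199, limma adjusted p = 0.663), and −0.12 (SE 0.107) without WT replicate 2. The WT values of Junb lay between 10.23 and 10.79 and its K289R values between 10.06 and 10.65, with 4 K289R arrays below every WT array and a difference of −0.19 (SE 0.099, limma adjusted p = 0.609). Fosb differed by 0.11 (SE 0.116), Jun by −0.05 (SE 0.092), Ier2 by −0.18 (SE 0.135), Ier3 by 0.01 (SE 0.110) and Nr4a1 by −0.06 (SE 0.150). The 95% intervals of these 5 genes all contained 0 and had their bounds between −0.46 and 0.36. With that array left out, Nr4a1 was at 0.09 (SE 0.084) and Ier3 at 0.11 (SE 0.069).

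The spread between mice of 1 genotype was wide for these genes. The pooled within-genotype SD on the log2 scale was 0.89 for Egr1, 0.43 for Fos, 0.32 for Nr4a1 and 0.31 for Dusp1, while the median over all tested genes was 0.127. Of the 10 members 8 were above the 90th percentile of all genes in this SD, and the lowest, Jun, was at percentile 84.5. Leaving out WT replicate 2 gave a pooled SD of 0.19 for Egr1, 0.22 for Fos, 0.16 for Nr4a1 and 0.17 for Dusp1, and 3 members, Fos, Fosb and Atf3, were above the 90th percentile. Ier3 was then at percentile 50.8 and Ier2 at 63.3. Within K289R the SD ran from 0.10 for Ier3 to 0.29 for Atf3.

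The members were then compared with Fos across mice, with the genotype held in the model (limma, slope of each gene on the log2 level of Fos, adjusted over 18009 genes). With all 14 arrays 3 of the other 9 members passed, Egr1, Ier2 and Ier3, and 6 of all genes, or 0.0333%. Egr1 had a slope of 1.84 log2 units per log2 unit of Fos (SE 0.24, adjusted p = 0.016), Ier2 one of 0.60 (SE 0.08, adjusted p = 0.0213) and Ier3 one of 0.48 (SE 0.08, adjusted p = 0.0408). Dusp1 had a slope of 0.60 (SE 0.10) and did not pass (adjusted p = 0.0745). All 9 slopes were positive, and 8 had an unadjusted p under 0.05, all but that of Fosb, against 5.75% of all genes.

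These calls rested on WT replicate 2. Without it 0 of the 9 members passed (lowest adjusted p = 0.435), as did 1 of all genes (0.00555%), Osr1, which was singled out after its values were seen. In that fit 3 of the 9, Jun, Junb and Ier2, had an unadjusted p under 0.05, against 9.33% of all genes. The slope of Egr1 was then 0.30 (SE 0.23) and that of Nr4a1 −0.18 (SE 0.21). Of the fits that left out 1 array, Egr1 passed in 13 of 14, all but that without WT replicate 2. Ier2 passed in 12, all but those without WT replicate 2 or K289R replicate 4. Ier3 passed in 5, those without WT replicates 1 or 7 or K289R replicates 2, 3 or 5. Dusp1 passed in 1, that without K289R replicate 3 (adjusted p = 0.00395).

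Pearson and Spearman correlations with Fos were computed over 14 arrays after subtraction of each genotype mean, with 2-sided permutation within genotypes (9 relations, adjusted over all genes only in the limma fit above). They were computed again without WT replicate 2, and without WT replicate 2 and K289R replicate 3, the 2 arrays farthest from the median Fos level. Jun had r of 0.56 (permutation p = 0.0105) and rho of 0.71 (permutation p = 0.00601). Its r was 0.78 and its rho 0.84 without WT replicate 2, and r was 0.81 without both arrays. It was 0.67 within the 6 other WT arrays and 0.85 within K289R. On WT replicate 2 Fos was at 11.53, above all other arrays, and Jun at 11.30, below 2 of them.

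For Egr1, r was 0.89 (permutation p = 0.0198) but rho 0.50 (permutation p = 0.061). Without WT replicate 2 its r was 0.35 and its rho 0.12, and r was 0.36 without both arrays. Nr4a1 had r of 0.71 (permutation p = 0.11) and rho of 0.19 (permutation p = 0.522), and without WT replicate 2 these were −0.24 and −0.35, with r of −0.28 without both arrays. Within K289R alone, r was 0.52 for Egr1 and −0.01 for Nr4a1.

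Ier2 had r of 0.90 (permutation p = 0.00457) and rho of 0.66 (permutation p = 0.0145), then r of 0.57 without WT replicate 2 and 0.61 without both arrays. Ier3 had r of 0.89 (permutation p = 0.00365) and rho of 0.64 (permutation p = 0.0178), then r of 0.57 and 0.53. Junb had r of 0.69 (permutation p = 0.00666) and rho of 0.64 (permutation p = 0.0166), then r of 0.55 and 0.47. These 3 genes kept a positive r in both smaller sets, lower than with all arrays.

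For Dusp1, Atf3 and Fosb the value turned on which arrays were left out. Dusp1 had r of 0.85 (permutation p = 0.0133) and rho of 0.44 (permutation p = 0.13), then r of 0.42 without WT replicate 2 and 0.77 without both arrays. Atf3 had r of 0.60 (permutation p = 0.0357) and rho of 0.47 (permutation p = 0.0992), then r of 0.25 and 0.61. Fosb had r of 0.45 (permutation p = 0.119) and rho of 0.18 (permutation p = 0.544), then r of 0.18 and 0.38. K289R replicate 3 was the lowest array in Fos (9.68) and the highest K289R array in Dusp1 (9.96), Atf3 (10.92) and Fosb (8.72). Within genotypes, r of Atf3 was 0.78 over the 6 other WT arrays and 0.07 over the K289R arrays, and the difference between these values was not tested.

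**Figure D3:**
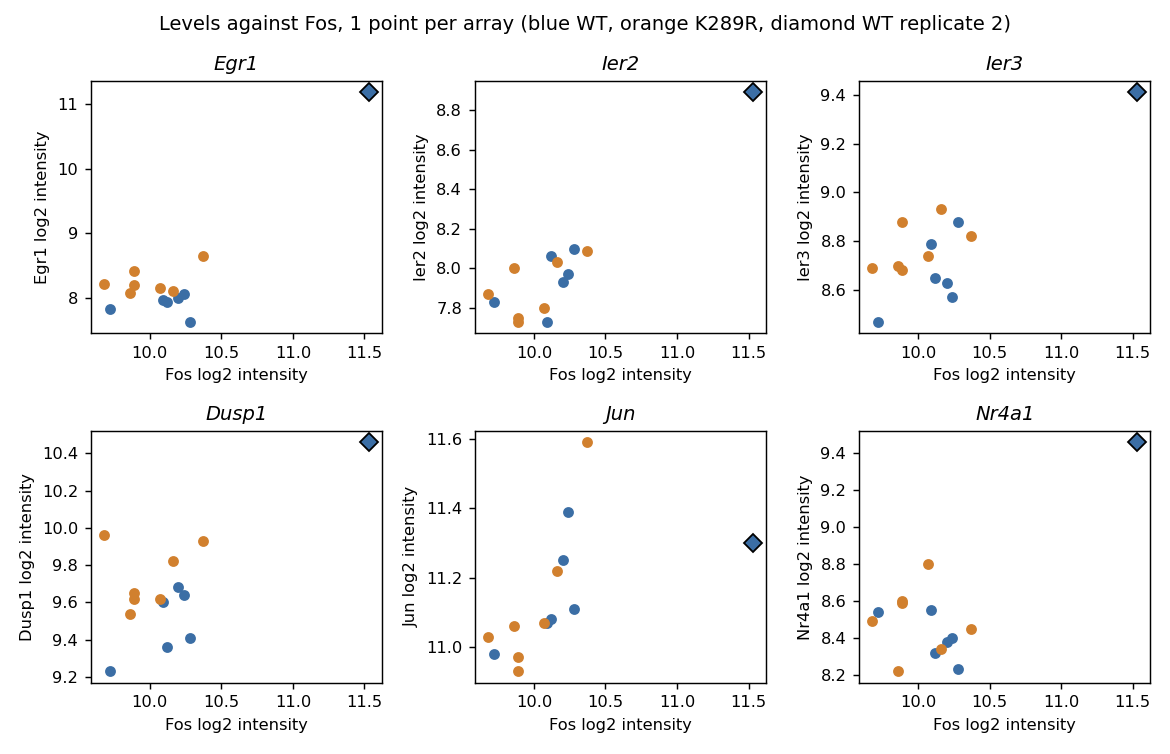
Log2 intensity of 6 genes (vertical axes, which differ between panels) against that of Fos (horizontal axis) on each array, WT in blue, K289R in orange and WT replicate 2 as a diamond. In the panels of Egr1 and Nr4a1 the diamond alone is high on both axes. In that of Jun the other 13 points climb together and the diamond lies to the right of them. The r of 0.78 for those 13 arrays was computed after subtraction of each genotype mean, while the points are levels without that subtraction.

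Over all 45 pairs of members r was positive in 44 with 14 arrays, with a median of 0.58 and a range of −0.15 to 0.90. Without WT replicate 2 it was positive in 32 of 45, with a median of 0.25 and a range of −0.79 to 0.78. Pairs share genes and arrays, so these numbers are a description only.

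The genes most like Fos over the 14 arrays, outside the members, were Plk3 (r = 0.91), Rnf41 (0.91), Ccdc130 (0.89), Zfp36 (0.89), Ccn1 (0.86), Ccdc74a (0.86), Kremen1 (0.85) and Il17rb (0.85). Plk3, Zfp36 and Ccn1 are themselves rapid response genes: Plk3 encodes a polo-like kinase, Zfp36 the protein tristetraprolin that speeds the decay of AU-rich messages, and Ccn1 a matricellular protein. In the test of the slope on Fos their limma adjusted p values were 0.0213, 0.0419 and 0.034. The slope and r rest on the same values, so this is no further support for genes picked by r. Without WT replicate 2 none of these genes passed. Next among the rapid response genes were Phlda1 (0.84) and Hbegf (0.83), the gene of a ligand of the EGF receptor. Without WT replicate 2, r was 0.72 for Plk3, 0.82 for Rnf41 and 0.69 for Zfp36 but 0.04 for Ccn1 and 0.31 for Phlda1. Ccn1 was at 10.48 on WT replicate 2, at most at 8.37 on the other WT arrays and between 8.03 and 8.42 on the K289R arrays.

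The wider set of immediate early and rapid response genes showed the same array, though less strongly. Of 39 tested genes of that list 23 had their highest WT value on WT replicate 2, against 18.8% of all genes. Their median excess over the other WT arrays, taken over the 39, was 0.27. Hbegf was 1.04 and Phlda1 0.99 log2 units above that median, and Ptgs2, the inducible cyclooxygenase, lay 2.07 above it (a gene picked with its value known). On the slope with Fos 37 of the 39 were positive, 3 passed and 16 had an unadjusted p under 0.05, against 0.0333% and 5.75% of all genes. Of the 39, 6 had an unadjusted p under 0.05 without WT replicate 2, against 9.33% of all genes. Of 7 other EGR and NR4A genes 4 were highest on that WT array (median excess 0.22) and 0 passed the slope test, with 3 at an unadjusted p under 0.05, and 0 without WT replicate 2. Of 14 other AP-1 family genes 2 were highest there (median excess 0.01), and 0 passed the slope test or had an unadjusted p under 0.05 in limma with all arrays. Without that array 4 of these 14 had an unadjusted p under 0.05 on the slope, where 9.33% of all genes did.

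Between the genotypes these lists held no gene past the threshold. Of the 39 rapid response genes 14 were higher and 25 lower in K289R (median −0.02), and 26 were higher and 13 lower without WT replicate 2 (median 0.03). Unadjusted p values under 0.05 were found for 3 of them in limma, Tnfaip3 (−0.20, SE 0.081), Errfi1 (0.22, SE 0.089) and Csrnp1 (0.14, SE 0.059), against 8.48% of all genes. Without WT replicate 2, an array left out after its values were seen, 8 of the 39 had one, against 10.1% of all genes. In the AP-1 list 6 of 14 were higher (median −0.035), led by Jdp2 (0.18, SE 0.071) and Mafg (−0.10, SE 0.046). They were the 2 with an unadjusted p under 0.05, against 8.48% of all genes. Maff was at −0.10 (SE 0.061). In the EGR and NR4A list 2 of 7 were higher (median −0.06), with Nab2 at −0.12 (SE 0.069), Egr4 at −0.07 (SE 0.050) and Nr4a2 at −0.06 (SE 0.061), and 0 at an unadjusted p under 0.05 in limma.

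Genes that act above or against the immediate early genes were also listed. Of 13 MAP kinase phosphatases and feedback inhibitors, 11 were higher and 2 lower in K289R, with a median of 0.04, and 0 passed in limma. An unadjusted p under 0.05 was found for 3, against 8.48% of all genes. Dusp10, a phosphatase of JNK and p38, differed by 0.37 (SE 0.077, adjusted p = 0.119), from 8.23 ± 0.12 (SD, n = 7) to 8.60 ± 0.18 (SD, n = 7), and by 0.39 (SE 0.079, adjusted p = 0.104) without WT replicate 2. Dusp16 was at −0.21 (SE 0.066) and Dusp4 at 0.17 (SE 0.064). Of 17 upstream kinases and transcription factors 9 were higher and 8 lower, with a median of 0.003 and 0 past the threshold in limma. An unadjusted p under 0.05, as in 8.48% of all genes, was found for 3, Rps6ka3 (0.20, SE 0.063), Egfr (0.22, SE 0.079) and Elk3 (0.19, SE 0.079).

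WT replicate 2 was also high for heat shock genes, which encode chaperones and are induced by protein damage and temperature. Hspa1a was at 11.97 there, at 11.01, 10.39 and 9.25 on WT replicates 6, 1 and 7, and from 7.60 to 8.09 on the other 10 arrays. The mean over 10 heat shock genes was 10.80 on WT replicate 2, 10.66, 10.32 and 10.18 on WT replicates 6, 1 and 7, between 9.44 and 9.63 on WT replicates 3, 4 and 5, and from 9.37 to 9.57 on the K289R arrays. All 4 arrays above 10 were WT, but only 1 of the 4 was high in the immediate early genes: the mean over the 10 members was 9.09 on WT replicate 6, 9.24 on WT replicate 1, 9.31 on WT replicate 7 and 10.23 on WT replicate 2. The remaining WT arrays lay at 9.24 to 9.30 and the K289R arrays at 9.23 to 9.58.

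Of the 10 heat shock genes 1 was higher and 9 were lower in K289R (median −0.255). In limma 0 passed and 8 had an unadjusted p under 0.05, against 8.48% of all genes. Hsph1 differed by −1.15 (SE 0.260), Hspa1b by −1.91 (SE 0.552) and Hspa8 by −0.19 (SE 0.056). With the mean of the heat shock list as a covariate, a fit added after the data were seen, Atf3 differed by 0.61 (adjusted p = 0.278) and Egr1 by 0.58 (adjusted p = 0.659). All 4 arrays with a heat shock mean above 10 were WT, so in this fit genotype and heat shock level cannot be fully told apart. Without the 4 WT arrays with a heat shock mean above 10, Atf3 differed by 0.59 (adjusted p = 0.446) and Egr1 by 0.29 (adjusted p = 0.594), and 0 members passed in either fit, where 0.0111% and 0% of all genes did. In the covariate fit 1 member, Atf3, had an unadjusted p under 0.05, where 10.3% of all genes did. In the fit without the 4 arrays 2 members, Egr1 and Atf3, had one, where 7.77% of all genes did. The difference of Fos, −0.32 in the fit of all arrays, was −0.06 with the covariate and −0.147 without the 4 arrays, and that of Junb, −0.19, was −0.032 and −0.056. Dusp1 was at 0.258 and 0.188. Ier2, Nr4a1 and Fosb changed sign in 1 or both of these fits, at differences of at most 0.182 in size. With the covariate no member passed on the slope with Fos (Egr1 at 1.686, adjusted p = 0.0606).

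**Figure D4:**
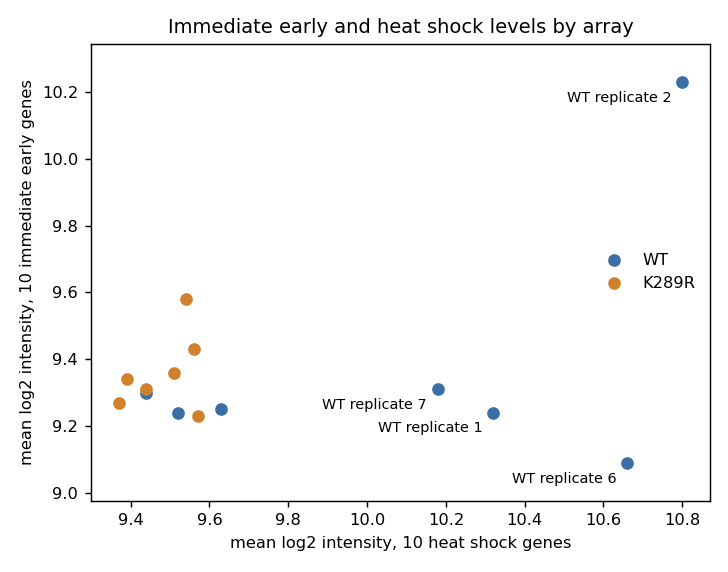
Mean log2 intensity of the 10 immediate early genes (vertical) against that of 10 heat shock genes (horizontal), 1 point per array, WT in blue and K289R in orange. WT replicates 1, 6 and 7 lie far to the right at 9.09 to 9.31 on the vertical axis, and WT replicate 2 is alone at 10.80 and 10.23.

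Markers of other cell types were set beside Fos in the same way. Over 14 arrays with genotype means subtracted, r with Fos was 0.40 for the heat shock mean, 0.33 for smooth muscle, 0.31 for fibroblasts and matrix, 0.05 for enterocytes, 0.23 for T cells and −0.37 for B cells. The permutation p values, adjusted by Benjamini-Hochberg over these 6 relations, were 0.497 or higher. The corresponding rho values were 0.38, 0.53, 0.06, 0.00, 0.03 and −0.47, with adjusted permutation p of 0.281 or higher and unadjusted p of 0.212, 0.0482, 0.856, 1, 0.928 and 0.0936. Without the 2 arrays farthest in Fos, r was −0.25 for heat shock, 0.24 for smooth muscle, −0.37 for fibroblasts and matrix, 0.12 for enterocytes, 0.36 for T cells and −0.35 for B cells. Endothelial markers were not among these 6 lists and are given with their values known. On the limma slope with Fos, 0 of 5 had an unadjusted p under 0.05 with all arrays, against 5.75% of all genes. Without WT replicate 2 it was 5 of 5, against 9.33%, with 2 of 10 for smooth muscle and 1 of 7 for fibroblasts and matrix.

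Leaving out WT replicate 6, an array high in heat shock and low in Fos, gave r of 0.745 for heat shock (adjusted permutation p = 0.025). For smooth muscle it gave 0.492 (adjusted permutation p = 0.00294). They were the only 2 of these relations that passed in a fit without 1 array. Their p values were adjusted over the 6 lists and not over the 14 fits they were picked from. The fit without WT replicate 6 held WT replicate 2. A separate fit left out only WT replicate 2 and kept WT replicate 6. There r was −0.238 for heat shock (adjusted permutation p = 0.585) and 0.488 for smooth muscle (adjusted permutation p = 0.573). Within K289R alone r of Fos with smooth muscle was 0.86, and within the WT arrays other than replicate 2 it was −0.76. The WT arrays had smooth muscle means of 10.59 to 10.77 and the K289R arrays of 10.51 to 11.06. Of 10 smooth muscle genes 9 were higher in K289R (median 0.21), such as Synm at 0.30 (SE 0.066). In limma 0 passed, against 0.0444% of all genes, and 6 had an unadjusted p under 0.05, against 8.48%. Of 7 fibroblast and matrix genes 7 were higher in K289R (median 0.297), with 0 past the threshold and 5 at an unadjusted p under 0.05. With that mean as a covariate Atf3 differed by 0.50 (adjusted p = 0.187). The differences of Fos, Junb and Jun were then −0.516 (adjusted p = 0.35), −0.304 (adjusted p = 0.253) and −0.156 (adjusted p = 0.553), and that of Egr1 was −0.335 (adjusted p = 0.822). On the slope with Fos, Ier3 no longer passed (limma adjusted p = 0.0563) and Dusp1 did (limma adjusted p = 0.0278). On WT replicate 2 the smooth muscle mean was 10.71 and the enterocyte mean 13.18, within the range of the other WT arrays, while endothelial markers at 8.75 and macrophage markers at 9.45 were among the higher WT values, together with WT replicates 5 and 6, and the fibroblast and matrix mean of 9.81 was the highest of the WT arrays. The part of these cell types in the results was not tested. In whole tissue, fewer cells of a type and less RNA per cell cannot be told apart.

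**Figure D5:**
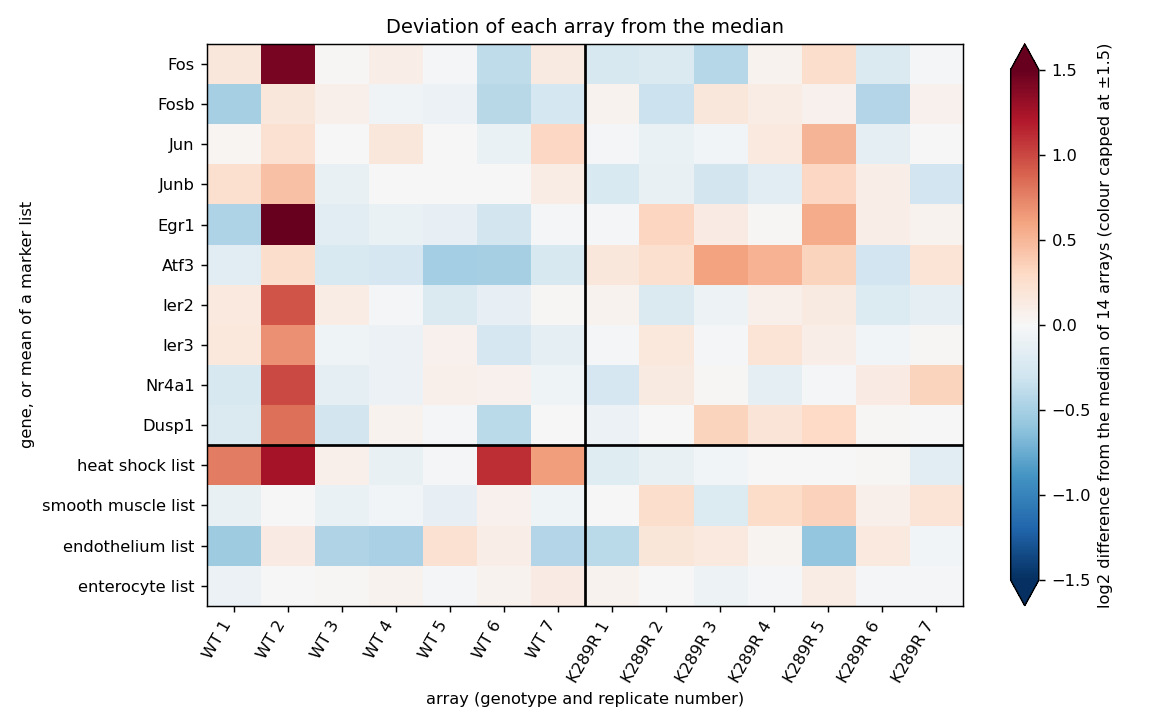
Log2 difference of each array (columns, WT then K289R) from the median of 14 arrays, for the 10 genes and, under the line, the means of 4 marker lists, with red above and blue below the median and the colour capped at 1.5. WT replicate 2 is above the median for all 10 genes and darkest for Egr1 and Fos, whereas WT replicates 1, 6 and 7 are most strongly red in the heat shock row.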

How the data were processed

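Affymetrix arrays were hybridised with jejunal RNA of 14 mice, 1 array each, from 100 ng of total RNA and 5500 ng of labelled cDNA per the labels' protocols. The deposited values are probe set intensity values on a linear scale, made by the authors with Affymetrix Expression Console per the submitters' processing notes; how probes were summarised, corrected and normalized there is a step not given in the sources. Array medians were close, the values were used without another normalization, and a shift of all genes between genotypes cannot be seen in them.

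Values were log2-transformed. The platform annotation gave 1 gene symbol for 23521 of 41345 probe sets. Those with several (1814) or none here (16010) were not used. The brightest probe set stood for a gene (22180), a gene entered the tests if its mean log2 reached 6.25, percentile 25 over probe sets, and the 18010 that did were fitted in R 4.3.3 by limma 3.58.1 (lmFit, eBayes, 2-sided, Benjamini-Hochberg over all genes, threshold 0.05), without covariates or with genotype and the log2 level of Fos. Limma's moderated standard errors are given. Permutation tests were exact over all splits of the arrays for differences and used 100000 resamples within genotypes for correlations (scipy 1.17.1). Scripts were tested on simulated data. The labels call the samples biological replicates. They do not say whether equal replicate numbers pair mice of the 2 genotypes, and the main fits used no pairing. Of 7 same-numbered pairs 1 had a correlation of deviations above 0.1, which cannot exclude a pairing.

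The members and the lists were chosen with earlier results of these data known. Named genes are the members, Nr5a2, at most 3 genes of each list with the smallest p (only lists that bear on the results are described), and the genes most like Fos; others are said to be singled out. Alternatives were other normalizations, filters, probe set rules, eBayes options, array weights, a replicate block, covariates and leaving out arrays. Of 191 list entries, members included, those below the filter or without a named probe set are not analysed here.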

Additional observations from a re-analysis of the deposited data

Results flagged for a closer look

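WT replicate 2 lay apart from the other 6 WT arrays, by more than Dixon's 95% limit for 7 values (on the gap to the next array over the range), for 5 genes. Its log2 intensity was 11.18 for Egr1 (gap 0.876 of the range), 9.46 for Nr4a1 (0.738), 11.53 for Fos (0.69), 8.89 for Ier2 (0.679) and 10.46 for Dusp1 (0.632). Atf3 (0.567) and Ier3 (0.557) fell just short. In all 32 groups were examined, the 10 members and the means of 6 lists in each genotype, and chance marks about 1 in 20 groups, or 1.6 here. All 5 marks are on the same array, and genes on 1 array are not independent. No K289R array was marked. The handling of this mouse is not given in the labels, and the cause was not tested.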

How the results depend on the processing

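No member passed the threshold between the genotypes in any of the 28 fits, and Fos, Jun, Junb, Atf3 and Dusp1 kept their direction in all of them. The number of all genes past the threshold was 8, and 14 with array weights, 0 with the replicate block, 2 with the heat shock covariate, 5 without the 4 arrays with a Fabp6 level above 8, 0 without the 4 WT arrays high in heat shock, and 4 to 14 with 1 array left out (4 without WT replicates 3 or 4 or K289R replicate 4, 5 without K289R replicate 7, 14 without K289R replicate 5). The number of genes that followed Fos was 6, and 0 with array weights, with the replicate block, with Junb in place of Fos and without the 4 WT arrays high in heat shock, 1 with the heat shock covariate, and 1 to 8 with 1 array left out (1 without WT replicate 2 or K289R replicate 4, 2 without WT replicate 5, 3 without K289R replicates 1 or 6). For the 9 members these counts were 3, and 0 with array weights, the replicate block, Junb, the heat shock covariate and without the 4 WT arrays high in heat shock, 1 without the 4 arrays with Fabp6, and 0 to 4 with 1 array left out. The 3 kinds of fit that use heat shock or Fabp6 were added after the data were seen. Whether the replicate numbers pair mice is not given in the labels (0 of 7 WT arrays matched their own number best). The block also uses up degrees of freedom. The cause of the other moves was not tested.

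Some differences changed sign, the largest of them that of Egr1. Egr1 was at 0.028 with array weights, 0.577 with the heat shock covariate and 0.292 without the 4 WT arrays high in heat shock. Ier3 was at −0.008 with quantile normalization, −0.059 with the smooth muscle covariate and −0.044 without the Fabp6 arrays. Nr4a1 was at 0.182 with the heat shock covariate and 0.079 without the 4 WT arrays high in heat shock. Ier2 was at 0.063 with that covariate, and Fosb at −0.02 without those 4 arrays, where the slope of Nr4a1 on Fos was −0.032. With 1 array left out Egr1 ran from −0.234 to 0.358, Ier3 from −0.043 to 0.112, Nr4a1 from −0.112 to 0.094 and the slope of Nr4a1 from −0.181 to 0.641. In these fits r with Fos ran from −0.238 to 0.745 for heat shock, 0.234 to 0.492 for smooth muscle, −0.292 to 0.502 for fibroblasts and matrix and −0.12 to 0.275 for enterocytes. For T cells it ran from 0.082 to 0.343 and for B cells from −0.443 to −0.341. The signal over background behind these intensities is unknown.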
